A study of Homo sapiens with 16 samples.

Results

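The small nucleolar RNA host genes described here are GAS5, SNHG1, SNHG5, SNHG6, SNHG7, SNHG8, SNHG12, SNHG15, SNHG16 and ZFAS1, 10 of the 28502 gene symbols listed in the expression tables. They were taken by symbol. All 10 averaged 1 FPKM or more over the libraries (fragments scaled to transcript length and library size), as did 11845 loci in all. The cells were HCT116, an established human colorectal carcinoma line. They were transfected with small interfering RNA (siRNA) against EZH1 (siEZH1), with siRNA against UXT (siUXT) or with a preparation labelled NC, and each transfection was treated with tumour necrosis factor (TNF) or phosphate-buffered saline (PBS). Each of the 6 conditions had 1 poly(A) RNA-seq library and hence no replicate. The sources used here do not give the number of siRNA sequences per target, the TNF dose and time, what NC abbreviates, or whether a TNF and a PBS library came from the same transfection.

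EZH1 is a Polycomb enzyme that methylates histone H3, and UXT is a small prefoldin-like protein. UXT belongs to the prefoldin-like module that accompanies R2TP, a chaperone complex that helps to assemble small nucleolar ribonucleoproteins. The host genes carry small nucleolar RNAs (snoRNAs) in their introns. Box C/D snoRNAs guide 2'-O-methylation and H/ACA snoRNAs guide pseudouridylation of ribosomal and spliceosomal RNA. After splicing, the introns yield the snoRNAs and the joined exons leave an RNA with no long reading frame. The spliced RNA of GAS5 and of several other hosts is degraded during translation by nonsense-mediated decay, so its level in poly(A) RNA reflects both transcription and decay. Many hosts begin with a 5' terminal oligopyrimidine tract, a stretch of C and T at the start that they share with ribosomal protein genes and that places translation under the control of mTOR.

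The starts of the host genes are shown because this tract is the sequence feature for which the family is known. RefSeq promoters (GRCh38.p14) were read for 8 of the 10 genes, and those of SNHG6 and SNHG15 were not examined. The 6 stretches below run from position -20 to position 50 around the annotated start, 5' to 3' on the gene's strand, for the genes whose levels are described most closely. Capitals mark the run of at least 5 C or T letters beginning with C that lies nearest to the start.
GAS5: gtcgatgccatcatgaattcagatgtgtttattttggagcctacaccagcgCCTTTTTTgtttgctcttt
SNHG1: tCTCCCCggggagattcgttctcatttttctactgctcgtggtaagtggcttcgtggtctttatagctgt
SNHG5: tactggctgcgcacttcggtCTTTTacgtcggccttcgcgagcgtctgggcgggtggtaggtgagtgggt
ZFAS1: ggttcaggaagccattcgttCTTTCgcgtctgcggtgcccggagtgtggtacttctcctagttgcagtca
SNHG8: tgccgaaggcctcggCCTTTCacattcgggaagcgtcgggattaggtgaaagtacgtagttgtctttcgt
SNHG12: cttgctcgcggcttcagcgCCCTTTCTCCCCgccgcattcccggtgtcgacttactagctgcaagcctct

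The stretches lie at chr1:173868996-173869065 (GAS5, minus strand), chr11:62855836-62855905 (SNHG1, minus strand) and chr6:85678684-85678753 (SNHG5, minus strand). Those of the other 3 genes lie at chr20:49278622-49278691 (ZFAS1, plus strand), chr4:118278742-118278811 (SNHG8, plus strand) and chr1:28581824-28581893 (SNHG12, minus strand). In SNHG5 and ZFAS1 the run began at position 1, the annotated start itself. The SNHG12 run was 12 letters long and began at position -1. In GAS5 the nearest run began 32 letters into the annotated transcript, and in SNHG1 at position -19. The SNHG1 start itself lies within the letters ttctc, which were not counted because they begin with T. A run at the start is thus missing in SNHG1 only by this rule. The stretch printed for each gene is that of its first listed start, and transcripts may begin elsewhere. A run of this kind within 5 letters of the start was present in 6 of the 8 promoters, against 27.4% of 35116 RefSeq promoters read the same way. The E-box CACGTG, sought from 250 letters before to 50 after the start, was present in SNHG7 among the 8 and in 7.26% of all promoters; it reads the same on both strands. These matches describe letters and not binding.

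Most of the hosts could not be separated from their own snoRNAs in the tables. In 6 of the 10 the host and at least 1 intronic snoRNA symbol carried identical FPKM in all 6 libraries. GAS5 shared its value with SNORD47, SNORD76 and SNORD80. SNHG1 shared its value with SNORD25, SNORD26, SNORD27, SNORD29 and SNORD31, and in 4 libraries also with SNORD22. SNHG7 was tied to SNORA17 and SNORA43, SNHG12 to SNORA16A, SNORA44 and SNORA61, SNHG15 to SNORA9, and SNHG16 to SNORD1C. SNHG5, SNHG6, SNHG8 and ZFAS1 shared with no other symbol. Of the 35 listed snoRNA symbols that lie in these hosts, 15 equalled the host, 17 were listed at 0 in every library and 3 had other values. Mature snoRNAs carry no poly(A) tail, and the values below are read as those of the hosts.

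Library totals ran from 617998 FPKM in NC PBS up to 649481 FPKM in siUXT TNF. The number of reads is not given; steps among values under 0.4 FPKM put the depth of siEZH1 TNF at 0.720, of NC TNF at 0.719 and of the other libraries at 0.949 to 1.02 of that of NC PBS. The siUXT PBS library stood apart, with 725 loci at least 2-fold from the median of the 6 libraries, against 52 to 85 in the others, so results that rest on it are also given without it. UXT was at 24.6 and 27.7 FPKM in siUXT TNF and siUXT PBS, against 59.6 and 62.2 FPKM in NC TNF and NC PBS. EZH1 differed less, at 4.14 and 4.05 FPKM in siEZH1 TNF and siEZH1 PBS, against 5.12 and 5.45 FPKM in NC TNF and NC PBS. The epithelial markers EPCAM, CDH1, KRT8, KRT18 and CDX2 were present in every library, and EPCAM was lowest in siUXT PBS at 58.7 FPKM. VIL1 was listed at 0 in 5 libraries. Of the 6 markers of other cell types, PTPRC and CD3E were listed at 0, PECAM1, CDH5 and COL3A1 reached at most 0.684 FPKM, and COL1A1 lay between 5.04 and 8.26 FPKM.

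The 10 hosts lay between 38.9 FPKM (SNHG15 in siEZH1 PBS) and 250 FPKM (SNHG6 in siEZH1 PBS), on a scale that allows for transcript length. SNHG6 had the highest mean at 206 ± 40.0 FPKM, followed by SNHG1 at 183 ± 45.1, ZFAS1 at 172 ± 32.7 and GAS5 at 167 ± 22.6 FPKM (SD over the 6 libraries, which differ in condition). The order of these 4 varied between libraries, and each was above the other 6 hosts in all 6 libraries. SNHG8 followed at 93.0 ± 19.9 FPKM and SNHG16 at 90.1 ± 3.68 FPKM, each above the other in 3 libraries. SNHG7 at 75.9 ± 9.87, SNHG5 at 67.7 ± 8.01, SNHG12 at 54.6 ± 14.7 and SNHG15 at 45.2 ± 7.50 FPKM were the lowest, and neighbours in this order changed places in at least 1 library. SNHG12 varied most, with a highest value 2.07 times its lowest. SNHG16 varied least, with a ratio of 1.13. Summed over the 10 hosts, the level was 1233 and 1331 FPKM in siEZH1 TNF and siEZH1 PBS, 1178 and 966 FPKM in siUXT TNF and siUXT PBS, and 1157 and 1067 FPKM in NC TNF and NC PBS.

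**Figure D1:**
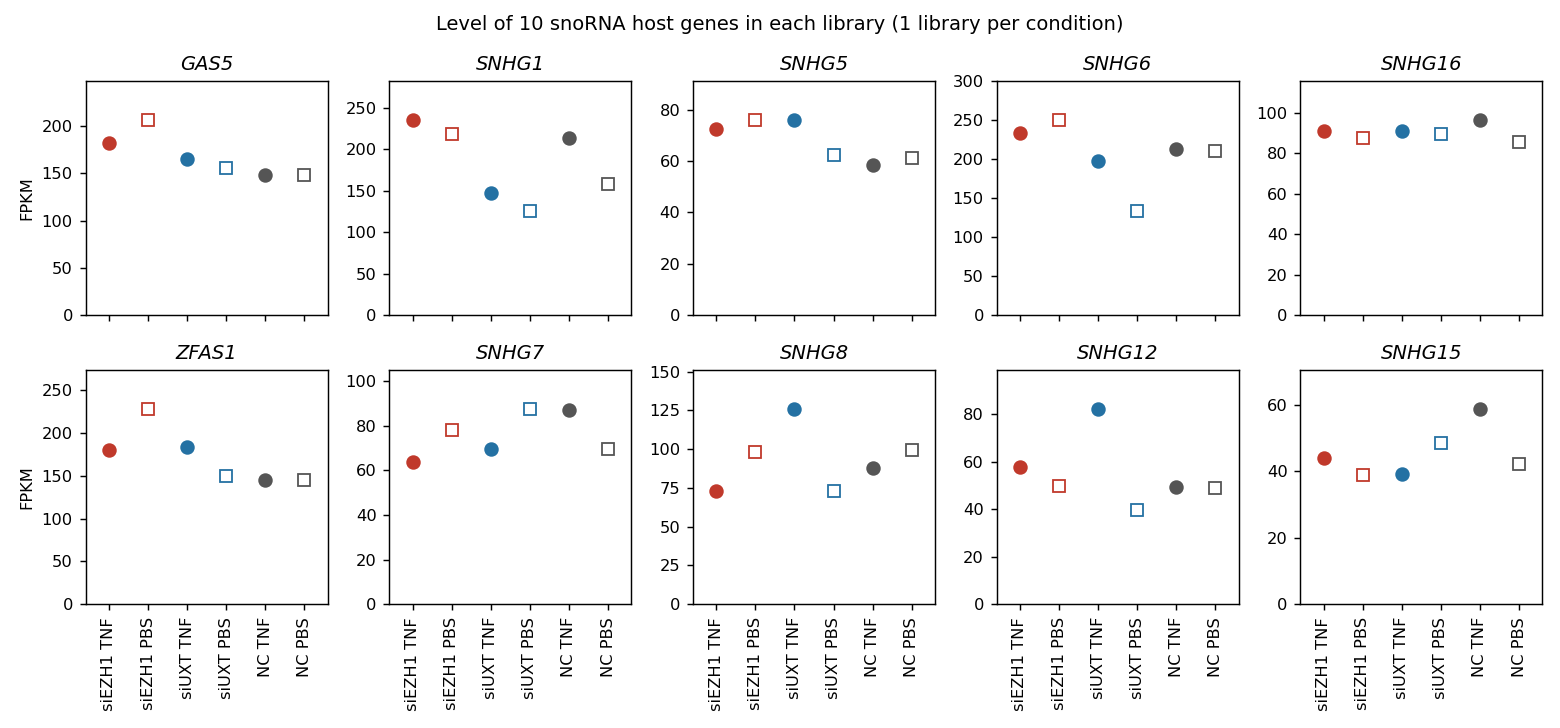
FPKM of each of the 10 host genes (vertical axes, each starting at 0) in the 6 libraries (horizontal axis; filled circles TNF, open squares PBS, 1 library per condition). GAS5, SNHG5 and ZFAS1 have all 4 knockdown libraries above both NC libraries (with size factors this holds for GAS5 alone), SNHG16 is nearly level, and SNHG12 has its highest value, 82.2 FPKM, in siUXT TNF.

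The comparison of siEZH1 with NC asks which transcripts differ when EZH1 is targeted. With siEZH1, 6 of the 10 hosts had both libraries above both NC libraries, namely GAS5, SNHG1, SNHG5, SNHG6, SNHG12 and ZFAS1, against 31.1% of all loci tested. None had both siEZH1 libraries below both NC libraries, against 28.4% of loci. The same 6 were above NC when the libraries were divided by median-of-ratios size factors. No host passed the test over all 6 libraries.

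Among the hosts of box C/D snoRNAs, ZFAS1, which carries SNORD12 family snoRNAs, was at 180 and 228 FPKM in siEZH1 TNF and siEZH1 PBS, at 184 and 150 FPKM in siUXT TNF and siUXT PBS, and at 145 and 145 FPKM in NC TNF and NC PBS. It was thus 1.24 times NC under TNF and 1.58 times NC under PBS in siEZH1 cells. GAS5, named for its accumulation in growth-arrested cells, was at 182 and 206 FPKM in siEZH1 TNF and siEZH1 PBS, at 165 and 156 FPKM in siUXT TNF and siUXT PBS, and at 148 and 148 FPKM in NC TNF and NC PBS. All 4 knockdown libraries of GAS5 were above the NC libraries, with the siEZH1 libraries highest. SNHG5, host of the U50 snoRNAs, was at 72.5 and 75.9 FPKM in siEZH1 TNF and siEZH1 PBS, at 75.9 and 62.4 FPKM in siUXT TNF and siUXT PBS, and at 58.3 and 61.0 FPKM in NC TNF and NC PBS. Its siEZH1 libraries were 1.24 times NC under both treatments, and siUXT PBS lay next to NC.

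SNHG1, host of the SNORD25 to SNORD31 cluster, was at 235 and 218 FPKM in siEZH1 TNF and siEZH1 PBS, at 147 and 126 FPKM in siUXT TNF and siUXT PBS, and at 214 and 158 FPKM in NC TNF and NC PBS. Both siUXT libraries were the lowest and both siEZH1 libraries the highest of the 6. SNHG6, host of SNORD87, was at 234 and 250 FPKM in siEZH1 TNF and siEZH1 PBS, at 198 and 134 FPKM in siUXT TNF and siUXT PBS, and at 213 and 210 FPKM in NC TNF and NC PBS. It followed the order of SNHG1 by transfection, with siUXT PBS well below the rest. SNHG16, host of the SNORD1 snoRNAs, lay between 87.7 and 90.9 FPKM in the siEZH1 libraries, between 89.5 and 91.0 FPKM in the siUXT libraries, and between 85.4 and 96.3 FPKM in the NC libraries, which enclosed the other 4.

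The other 4 hosts carry H/ACA snoRNAs. SNHG12, which carries 3 H/ACA snoRNAs and the box C/D snoRNA SNORD99, was at 57.6 and 49.6 FPKM in siEZH1 TNF and siEZH1 PBS, at 82.2 and 39.8 FPKM in siUXT TNF and siUXT PBS, and at 49.4 and 48.9 FPKM in NC TNF and NC PBS. The siUXT libraries were its highest and its lowest. SNHG8, host of SNORA24, was at 73.0 and 98.5 FPKM in siEZH1 TNF and siEZH1 PBS, at 126 and 73.3 FPKM in siUXT TNF and siUXT PBS, and at 87.8 and 99.2 FPKM in NC TNF and NC PBS. Its siUXT TNF library was the highest, and siUXT PBS and siEZH1 TNF were the lowest.

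SNHG7, host of SNORA17 and SNORA43, was at 63.8 and 77.9 FPKM in siEZH1 TNF and siEZH1 PBS, at 69.7 and 87.5 FPKM in siUXT TNF and siUXT PBS, and at 86.9 and 69.4 FPKM in NC TNF and NC PBS. SNHG15, host of SNORA9, was at 43.9 and 38.9 FPKM in siEZH1 TNF and siEZH1 PBS, at 39.0 and 48.4 FPKM in siUXT TNF and siUXT PBS, and at 58.7 and 42.2 FPKM in NC TNF and NC PBS. In both genes TNF exceeded PBS in NC cells and PBS exceeded TNF in siUXT cells. In siEZH1 cells PBS was the higher for SNHG7 and TNF the higher for SNHG15. On the log2(FPKM + 1) scale, used for all differences here, the median siEZH1 difference of these 4 hosts was -0.34 under TNF and 0.01 under PBS. That of the 6 box C/D hosts was 0.22 under TNF and 0.39 under PBS, with SNHG16 the only member below 0 under TNF. The division follows the snoRNA type for most hosts. GAS5 was counted as box C/D, although the RefSeq annotation also places SNORA103, an H/ACA snoRNA, inside it. The division was made after the values were seen and was not tested.

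**Figure D2:**
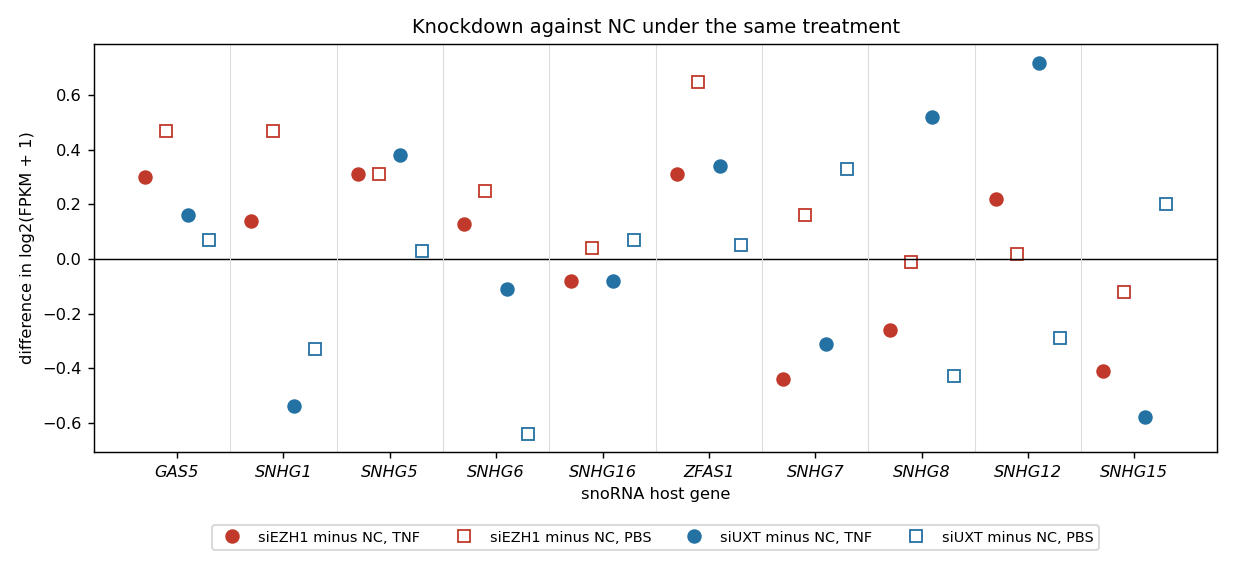
Difference in log2(FPKM + 1) between each knockdown library and the NC library of the same treatment (vertical axis) for the 10 host genes (horizontal axis; red siEZH1, blue siUXT, filled circles TNF, open squares PBS). The hosts counted as box C/D are the 6 on the left. GAS5, SNHG1, SNHG5, SNHG6, SNHG12 and ZFAS1 have both siEZH1 points above 0. The siUXT points of SNHG7, SNHG8, SNHG12 and SNHG15 lie on opposite sides of 0. So do those of the box C/D host SNHG16, at -0.08 under TNF and 0.07 under PBS.

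The siEZH1 effect was estimated with limma over all 6 libraries in an additive model of transfection and treatment. For ZFAS1 the difference was 0.48 with a standard error of 0.19 and a 95% confidence interval of 0.02 to 0.94 (limma, Benjamini-Hochberg adjusted p = 0.602). For GAS5 it was 0.38 with a standard error of 0.15 and an interval of 0.02 to 0.75 (adjusted p = 0.602). These were the 2 hosts with an unadjusted p under 0.05, as were 972 of all loci. SNHG5 had 0.31 ± 0.18, SNHG1 0.30 ± 0.16, SNHG6 0.19 ± 0.20 and SNHG12 0.12 ± 0.27 (limma estimate ± SE). SNHG15, SNHG7, SNHG8 and SNHG16 were estimated at -0.26, -0.14, -0.14 and -0.02. At a limma adjusted p under 0.05, 0 of the 10 hosts were called, and 0.0169% of all loci were. EZH1 itself, at -0.30, was not called either (limma, Benjamini-Hochberg adjusted p = 0.643).

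The count depended on the siUXT libraries, which enter this estimate only through the shared spread. Without siUXT PBS, limma with Benjamini-Hochberg adjustment called GAS5 (adjusted p = 0.0142), ZFAS1 (0.0164), SNHG5 (0.0196) and SNHG1 (0.0495) higher, at the same estimates. This is 4 of 10, where 11.8% of all loci were called higher and 14.7% lower. Without siUXT TNF, limma called the same 4, against 11.3% of loci called higher. Both fits have 1 residual degree of freedom. EZH1 itself was not called for siEZH1 without siUXT PBS.

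The comparison of siUXT with NC asks the same of UXT and gave no common direction. GAS5, SNHG5 and ZFAS1 had both siUXT libraries above both NC libraries, where 17.3% of all loci did, and with size factors GAS5 was the 1 that remained. SNHG1 and SNHG6 had both siUXT libraries below both NC libraries, where 12.9% of loci did, also with size factors. The other 5 hosts differed from NC in opposite directions under TNF and under PBS, as did 59.7% of all loci. SNHG1 was 0.688 times NC under TNF and 0.797 times under PBS, and was the 1 host at least 1.25-fold lower in both pairs, where 1.62% of loci were.

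Opposite directions were widest in SNHG8 and SNHG12. SNHG8 in siUXT cells was 1.44 times NC under TNF and 0.740 times NC under PBS, and it was the 1 host at least 1.25-fold apart both ways, with 7.79% of all loci. SNHG12 was 1.67 times NC under TNF and 0.814 times under PBS. In SNHG15 the order was turned, with 0.665 times NC under TNF and 1.15 times under PBS, and likewise in SNHG7, with 0.802 and 1.26 times. TRNAU1AP, a gene that overlaps SNHG12 in the RefSeq annotation, was at 11.6 and 10.3 FPKM in siUXT TNF and siUXT PBS, against 7.28 and 7.33 FPKM in NC TNF and NC PBS. Without a stated strand setting reads of such overlapping genes cannot be told apart, and the part of TRNAU1AP in the SNHG12 values was not tested.

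Limma called 0 of the 10 hosts for siUXT over all 6 libraries, and 0.0422% of all loci. UXT itself, at -1.19, was not called there either (limma, Benjamini-Hochberg adjusted p = 0.689). A lack of calls therefore does not show that the hosts were unchanged. Among the hosts SNHG1 had the largest estimate in size, at -0.43 ± 0.16 (SE). Its 95% confidence interval was -0.81 to -0.05 (limma, Benjamini-Hochberg adjusted p = 0.908). It was the 1 host with an unadjusted p under 0.05, as were 432 loci. SNHG6 followed at -0.38 ± 0.20, and the other 8 estimates lay between -0.19 (SNHG15) and 0.22 (SNHG12). Leaving out either siUXT library changed the hosts called. Without siUXT PBS the estimate rests on the siUXT TNF library alone, taken to vary like the others; limma then called SNHG12 higher at 0.68 (Benjamini-Hochberg adjusted p = 0.0493), with 0.439% of loci called higher. Without siUXT TNF it rests on siUXT PBS alone; limma then called SNHG6 at -0.67 (Benjamini-Hochberg adjusted p = 0.00304), SNHG8 at -0.49 (0.0181) and SNHG1 at -0.41 (0.0426) lower, with 18.4% of loci called lower. The siEZH1 and siUXT comparisons share the NC libraries.

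TNF, which acts through its receptor on NF-kB, gave 0 called hosts. In the NF-kB target genes used as a check, NFKBIA, TNFAIP3, BIRC3, CXCL1, ICAM1, RELB and NFKB2, 7 of 7 rose. NFKBIA, the inhibitor of NF-kB, was at 309, 261 and 379 FPKM under TNF in siEZH1, siUXT and NC cells, against 28.2, 22.8 and 26.9 FPKM under PBS (limma, Benjamini-Hochberg adjusted p = 3.1e-04). No host had an unadjusted p under 0.05, as 469 loci did, and every host's Benjamini-Hochberg adjusted p in limma was 0.999. Over all loci limma called 0.414%. The estimates for the hosts lay between -0.10 (SNHG7) and 0.42 (SNHG12), with standard errors of 0.12 to 0.24. The 95% confidence interval of SNHG12 was -0.10 to 0.94.

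SNHG1, SNHG12 and SNHG16 were higher under TNF than under PBS in all 3 transfections, where 9.08% of all loci were, and 0 were lower in all 3, where 11.1% of loci were. SNHG1 under TNF was 1.08 times PBS in siEZH1, 1.17 times in siUXT and 1.35 times in NC cells. Some of these gaps were slight. SNHG12 was 1.16 times PBS in siEZH1, 2.07 times in siUXT and 1.01 times in NC cells. SNHG16 was 1.04 times PBS in siEZH1, 1.02 times in siUXT and 1.13 times in NC cells. SNHG15 was 1.13 times PBS in siEZH1 cells, 0.805 times in siUXT cells and 1.39 times in NC cells. In NC cells the TNF differences of GAS5, SNHG5, SNHG6, SNHG12 and ZFAS1 lay between -0.07 and 0.02. SNHG12 in siUXT cells was the largest single difference, at 2.07 times PBS under TNF, and SNHG8 there was 1.72 times. Between TNF and PBS, 7.04% of all loci were at least 2-fold apart in siUXT cells, against 1.33% in siEZH1 and 1.49% in NC cells. The TNF estimate was 0.11 for SNHG12 and -0.30 for SNHG8 without siUXT PBS. It is the same without siUXT TNF by construction, since both fits then rest on the NC and siEZH1 libraries.

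**Figure D3:**
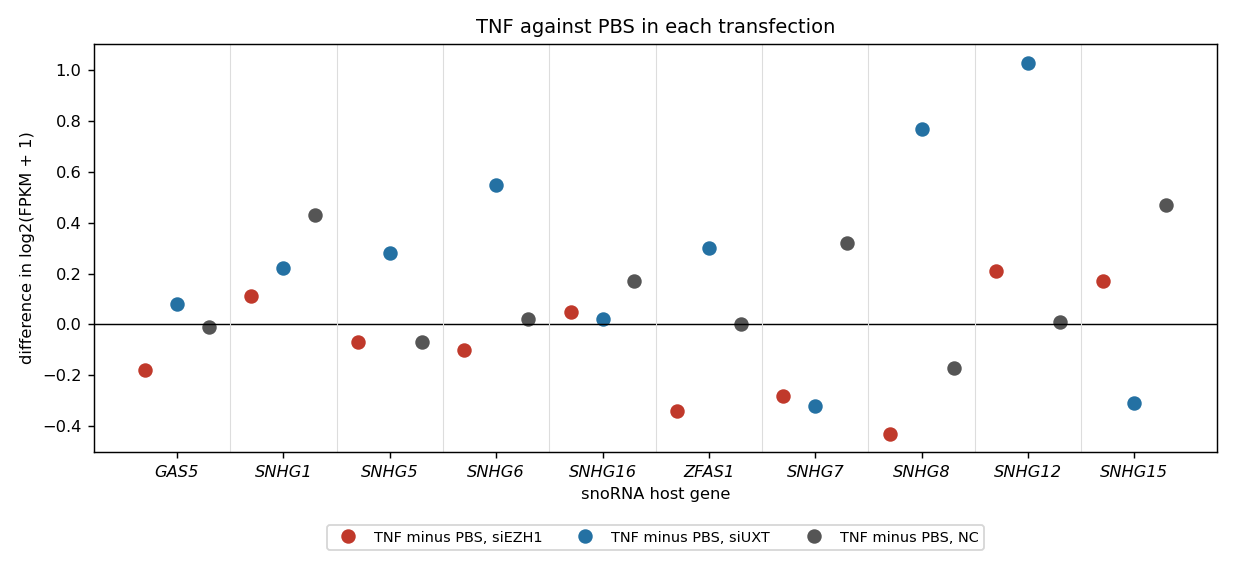
Difference in log2(FPKM + 1) between the TNF and the PBS library of each transfection (vertical axis) for the 10 host genes (horizontal axis; red siEZH1, blue siUXT, grey NC; 1 pair each). The points of siUXT reach 1.03 for SNHG12 and 0.77 for SNHG8, while the NC points of GAS5, SNHG6, SNHG12 and ZFAS1 lie at or next to 0.

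Other parts of the snoRNA pathway were set beside the hosts. The median siEZH1 difference of the 10 hosts was 0.14 under TNF and 0.21 under PBS, against 0.02 and 0.00 over all loci. Among 8 tested noncoding hosts outside the 10 it was -0.18 under TNF and -0.21 under PBS, with 1 higher and 5 lower in both pairs. Of all loci, 40.7% were higher and 37.7% lower in both siEZH1 pairs, and of the 10 hosts 6 were higher and 2 lower. SNHG9 was at 62.1 and 51.9 FPKM in siEZH1 TNF and siEZH1 PBS, against 91.7 and 105 FPKM in NC TNF and NC PBS. SNHG3 and SNHG4 shared values with the protein-coding genes RCC1 and MATR3 and cannot be assigned, yet both loci are among the 8. The SNHG4 locus, at 0.28 under TNF and 0.41 under PBS, was the 1 higher in both pairs. The SNHG3 locus, at -0.15 and -0.07, was among the 5 lower. DANCR had differences of -0.14 under TNF and 0.16 under PBS. Limma called 0 of these 8 for siEZH1, siUXT or TNF over all 6 libraries and, without siUXT PBS, 1 higher and 1 lower for siEZH1.

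Protein-coding snoRNA hosts had medians of 0.20 and 0.10 for siEZH1 under TNF and PBS, with 15 of 25 higher in both pairs, 6 lower and 0 called. Without siUXT PBS limma called 9 of the 25 higher and 4 lower for siEZH1. TPT1, a translationally controlled protein with a 5' oligopyrimidine tract, was at 3590 and 2940 FPKM in siEZH1 TNF and siEZH1 PBS, at 3750 and 2580 FPKM in siUXT TNF and siUXT PBS, and at 4840 and 5580 FPKM in NC TNF and NC PBS. The most abundant others, GNB2L1, EEF2 and HSPA8, had siEZH1 differences of -0.06, -0.18 and 0.42 under TNF and of -0.07, -0.09 and 0.26 under PBS. Of 77 tested loci of cytoplasmic ribosomal proteins, which share the oligopyrimidine tract, 51 were higher and 19 lower in both siEZH1 pairs. Their medians were 0.14 under TNF and 0.12 under PBS, with 0 called over all 6 libraries and, without siUXT PBS, 24 called higher and 12 lower. The most abundant, RPS2, RPL41, RPLP0 and RPS12, had differences of -0.34, 0.01, -0.03 and 0.18 under TNF.

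Factors of nonsense-mediated decay, the pathway that degrades spliced host RNA, had siEZH1 medians of 0.01 under TNF and -0.05 under PBS. UPF1, its central helicase, had -0.34 and -0.20, and its cofactors SMG5 and SMG9 had -0.36 and -0.27 under TNF. The decay factors had siUXT medians of -0.13 under TNF and 0.09 under PBS. Core proteins of the snoRNA particles, such as fibrillarin (FBL), NOP10, NHP2 and NHP2L1, had siEZH1 medians of 0.06 under TNF and 0.01 under PBS and siUXT medians of 0.13 and 0.21. Assembly factors had siUXT medians of 0.12 under TNF and -0.19 under PBS. Among these, RUVBL1, RUVBL2 and PIH1D1 of R2TP had siUXT differences of 0.17, -0.09 and 0.11 under TNF and of 0.32, 0.42 and 0.35 under PBS. RPAP3, the remaining R2TP subunit, had 0.12 under TNF and -1.12 under PBS. NOLC1, a nucleolar phosphoprotein that binds both snoRNA classes, had siEZH1 differences of 0.57 and 0.54 and siUXT differences of 0.52 and 0.20 under TNF and PBS. Limma called 0 members of the decay, core and assembly lists for siEZH1, siUXT or TNF over all 6 libraries. Without siUXT PBS its siEZH1 calls were 3 lower among 10 decay factors, 2 higher and 2 lower among 8 core proteins, and 2 higher among 10 assembly factors.

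**Figure D4:**
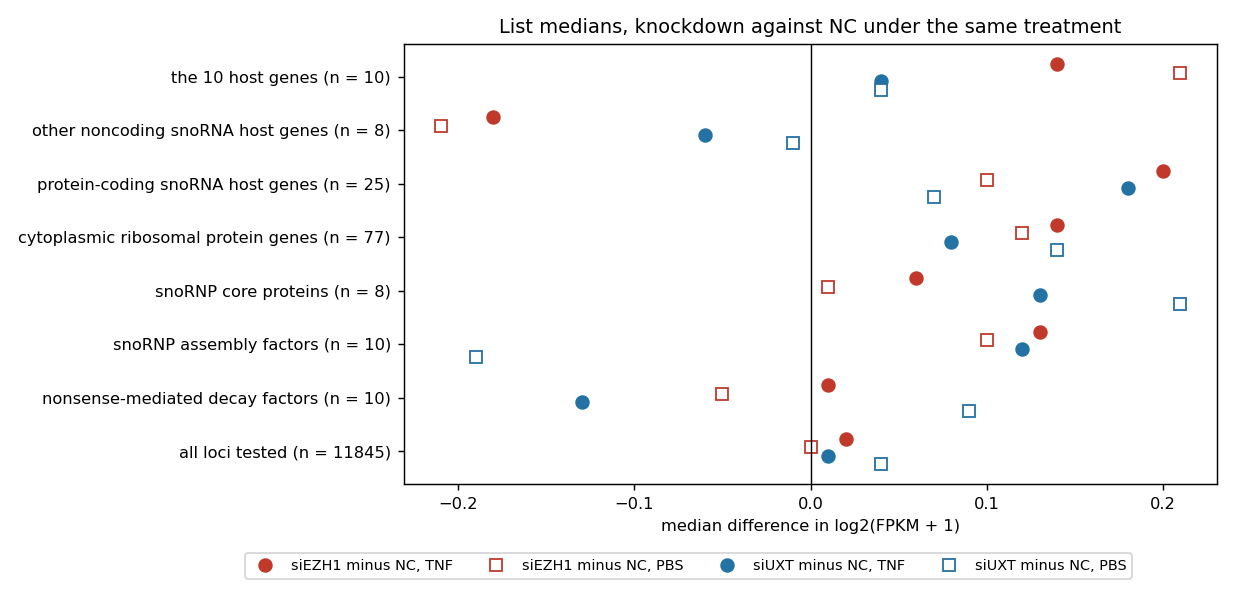
Median difference in log2(FPKM + 1) between knockdown and NC under the same treatment (horizontal axis) for the 10 host genes, 6 lists and all loci tested (vertical axis, with the number of loci; red siEZH1, blue siUXT, filled circles TNF, open squares PBS). The 10 host genes lie at 0.14 and 0.21 for siEZH1. The 8 further noncoding hosts, which include the loci shared with RCC1 and MATR3, lie at -0.18 and -0.21.

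The loci whose pattern was most like the hosts were sought over the 6 libraries among the 5999 others that averaged 10 FPKM or more. Likeness was the root mean square difference from the median of the 10 hosts, after each locus was centred on its own mean of log2(FPKM + 1). SLC39A6, a zinc transporter (0.031), the HNRNPM locus (0.035), ACO1 (0.036), TPM3, a tropomyosin (0.036), and BUB3, a spindle checkpoint protein (0.039), were nearest. The hosts themselves lay farther from their own median, between 0.10 (GAS5) and 0.29 (SNHG12), so the median profile describes no single host closely. It ran at 0.10 and 0.14 in siEZH1 TNF and siEZH1 PBS, 0.00 and -0.14 in siUXT TNF and siUXT PBS, and 0.01 and -0.12 in NC TNF and NC PBS.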

How the data were processed

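The authors deposited 1 table of FPKM per gene symbol for each of the 6 RNA libraries. Per the submitters' processing notes, FastQC, cutadapt, TopHat2, Bowtie and SICER were used with hg19; the sources used here do not give the program behind the FPKM, the annotation, the strand setting or tool versions. The 10 chromatin samples were not analysed here. Symbols that carried the same value in every library were merged into 1 locus, and the 11845 loci averaging 1 FPKM or more were tested on log2(FPKM + 1), which understates changes of low genes. The test was limma 3.58.1 (R 4.3.3, lmFit, eBayes with trend), additive in transfection and treatment, with 2 residual degrees of freedom. Benjamini-Hochberg adjustment was made over all loci at 0.05. The test was tried on simulated data with even noise, siEZH1 effects alone and no outlying library. That setting differs from these data, where siUXT PBS stood apart. With 1 library per condition, the residual spread is departure from the additive model and not variation between replicates. Standard errors and p-values thus mix noise with differences in TNF response between transfections. The labels name no separate cultures, so the noise may be technical. Single pairs have no test. The members and lists were chosen with earlier results of these data known. Named genes are the 10 members, the siRNA targets, up to 4 of the highest mean FPKM per list and the 5 nearest loci, of which 1 list gene is not reported here; TAF1D, EIF4A2, RPAP3, TRNAU1AP, the further NF-kB genes and the division by snoRNA type were added after their values were seen. Overlapping and near-identical genes are uncertain. Alternatives were other pseudocounts (0.1 and 5), filters, size factors, eBayes without trend, unmerged symbols and each library left out. Python 3.11.15, numpy 2.4.6, pandas 2.3.3 and matplotlib 3.10.9 did the rest.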

Additional observations from a re-analysis of the deposited data

Results flagged for a closer look

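SNHG8 was singled out because its knockdown difference went opposite ways by at least 1.25-fold. In siUXT cells it differed from NC by 0.52 under TNF and by -0.43 under PBS on the log2(FPKM + 1) scale. Its TNF difference was 0.77 in siUXT cells and -0.43 in siEZH1 cells. With 1 library per condition these differences between groups were not tested.

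A pair of intronic snoRNAs had values that did not follow their hosts. SNORA24, inside SNHG8, was listed at 31.5 FPKM in siEZH1 TNF and 15.5 FPKM in siUXT TNF and at 0 in the other 4 libraries. SNORD12B, inside ZFAS1, was listed at 1222 FPKM in NC TNF and at 0 in the other 5. FPKM is scaled to transcript length and snoRNAs are short, so few reads can give a high value. The number of reads behind these values is not given, and their difference between libraries was not tested.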

How the results depend on the processing

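No paired analysis was possible by replicate number because each condition has 1 library and the labels carry no such numbers; the additive model already compares knockdown with NC within each treatment, and TNF with PBS within each transfection. Loci called for siEZH1 numbered 2 with all libraries and 1 with a mean of at least 5 FPKM; for siUXT they numbered 5, against 0 with a pseudocount of 0.1 and 1 with a mean of at least 5 FPKM; for TNF they numbered 49, against 23 with no filter. Leaving out 1 library gave 42 to 3132 loci for siEZH1, 46 to 3604 for siUXT and 126 to 328 for TNF, and 0 to 4, 0 to 3 and 0 to 0 called hosts. The high ends came from the fits without siUXT PBS or siUXT TNF. Hosts with both siUXT libraries above NC numbered 3, against 1 with size factors. Size factors turned SNHG7 for siUXT to -0.03 and ZFAS1 for TNF to 0.01. Leaving out 1 library turned several small estimates. For siEZH1 the ranges were 0.00 to 0.38 for SNHG6, -0.45 to 0.17 for SNHG7, -0.50 to 0.23 for SNHG8, -0.18 to 0.42 for SNHG12, -0.53 to 0.00 for SNHG15 and -0.09 to 0.04 for SNHG16. For siUXT they were -0.30 to 0.32 for SNHG7, -0.49 to 0.58 for SNHG8, -0.24 to 0.68 for SNHG12, -0.50 to 0.12 for SNHG15, -0.07 to 0.06 for SNHG16 and -0.04 to 0.43 for ZFAS1. For TNF they were -0.09 to 0.04 for GAS5, -0.07 to 0.11 for SNHG5, -0.04 to 0.29 for SNHG6, -0.30 to 0.02 for SNHG7, -0.30 to 0.30 for SNHG8, -0.07 to 0.32 for SNHG15 and -0.17 to 0.15 for ZFAS1. GAS5, SNHG1, SNHG5 and ZFAS1 for siEZH1 kept their direction in each of these fits. So did GAS5, SNHG1, SNHG5 and SNHG6 for siUXT, and SNHG1, SNHG12 and SNHG16 for TNF. The cause of the changes was not tested. The number of reads is not given, so no counting error can be put on a value.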

Other observations

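TAF1D, a protein-coding snoRNA host that encodes a subunit of the RNA polymerase I factor SL1, was singled out after its values were seen. Its locus, which shares its values with SNORA8, SNORA18, SNORA40, SNORD5 and MIR1304, was at 34.0 and 44.3 FPKM in siEZH1 TNF and siEZH1 PBS, at 67.4 and 9.40 FPKM in siUXT TNF and siUXT PBS, and at 25.2 and 45.3 FPKM in NC TNF and NC PBS. As in SNHG12, the siUXT libraries were the highest and the lowest. It passed the test in none of the 3 comparisons (limma, Benjamini-Hochberg adjusted p of 0.922 for siEZH1, 0.953 for siUXT and 0.999 for TNF).

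Another protein-coding host, EIF4A2, a translation initiation helicase whose value SNORA4 shares, was at 109 and 65.6 FPKM in siUXT TNF and siUXT PBS, against 123 and 141 FPKM in NC TNF and NC PBS. It was named for the same reason, and limma's adjusted p for siUXT was 0.908 (Benjamini-Hochberg).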
